A study of Mus musculus with 24 samples.

Results

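Inhibition in the spinal cord rests on GABA and glycine, and 28 genes that make, load, release, sense, clear or respond to these transmitters were followed here through spared nerve injury. They were chosen by gene name from 32884 genes with values in mouse spinal cord. They are 11 GABA-A receptor subunits, 2 GABA-B receptor subunits, 4 glycine receptor subunits, 4 genes of synthesis, vesicle loading and breakdown, 3 plasma membrane transporters, 2 chloride cotransporters and 2 proteins of the postsynaptic scaffold. Mice had the tibial and common peroneal branches of the sciatic nerve ligated and cut, and cord was taken on day 3, day 7 or day 14. Sham mice had the nerve exposed only and are labelled day 3, so no sham cord of a later day was compared. Strain, sex, age and the stretch or side of cord are unknown from the labels. Every group (4 in all) has 3 RNA-seq libraries of poly(A)-selected input RNA, given as FPKM (fragments scaled by transcript length and library total). It also has 3 libraries enriched with an antibody to N6-methyladenosine (m6A), given as 1 peak list per group.

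GABA and glycine open chloride channels on the receiving neuron, the GABA-A and glycine receptors, and GABA also acts on the GABA-B receptor, which signals through G proteins. Whether an open channel quiets the neuron depends on its chloride, which Slc12a5 (KCC2) pumps out and Slc12a2 (NKCC1) brings in. In the dorsal horn this inhibition restrains pain signalling, and the study asks which transcripts and m6A marks differ in the cord after a nerve lesion that causes lasting pain hypersensitivity. m6A is a methyl mark on adenosine in mRNA, often placed near stop codons and within the motif core GGAC.

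The labels say spinal cord. The 7 Hox genes of the trunk segments summed to 143 to 168 FPKM (highest Hoxb8, mean 54.7, and Hoxc10, 40.6). The 7 markers of brain above the cord summed to 2.1 to 3.55 FPKM, with Neurod6 (mean 1.57) and Neurod1 (0.455) highest and Tbr1 and Emx1 under 0.1 FPKM in every library. Of 8 markers of primary afferents, Calca, which motor neurons also express, had a mean of 22.2 FPKM and P2rx3 0.475, and Scn10a, Scn11a and Trpv1 were under 0.1 FPKM in every library. FPKM summed to 180340 to 201358 per library, and the read depth behind it is unknown. Among the 12 input libraries a pair, sham library 3 and day 7 library 3, was unlike the rest of its groups. Over 93 highly expressed genes (200 FPKM upward), ratios between a library of the pair and any other varied by 36 to 40% from gene to gene. Among the other 10 libraries they varied by 3.44 to 7.31% between groups and by 1.21 to 1.75% within groups. No label says that replicate libraries are separate animals, so p-values measure only how libraries differ, and that spread may be technical. Below, counts of the inhibitory genes that passed a test are given with all 12 libraries and without the pair that stood apart. Some values of single genes and markers are given in only 1 of these settings. Peak lists are not split by library, so peaks could not be given without the pair.

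Many of the inhibitory genes had outlying values in this pair. Of the 26 members tested (mean FPKM of at least 0.5), 16 were higher in both of these libraries than in any of the other 10 and 5 were lower in both, 80.8% together, beside 63.1% of the 15564 genes tested. In log2(FPKM + 0.5), members lay between -1.51 and 1.12 from the mean of their group mates in day 7 library 3 and between -1.42 and 0.93 in sham library 3. The sign was shared by both libraries for 22 of 26 members (84.6%, beside 85.3% of all genes tested). Across the other 10 libraries the median member ranged over 0.14 log2 units from lowest to highest, against 0.27 for the median of all genes tested. In the pair, the summed FPKM of 11 general neuronal markers was 2308 (sham) and 2075 (day 7) against 2705 to 2845 in the other 10. Single genes of that list went both ways: 5, among them Nefl, Tubb3 and Uchl1, were lower in both libraries than in the 10, and 3, Map2, Elavl4 and Syt1, were higher in both. Of 6 motor neuron markers, 4 were lower in both and 0 higher (sums of 49.8 and 43.6 against 79.1 to 89.1). The 17 genes listed as inhibitory interneuron markers summed to 338 and 341 against 394 to 446, a gap mostly of Sst (42.2 and 50.1 against 100 to 112 FPKM). Of these 17, 5 were lower in both and 4 higher in both, Pvalb, Lbx1, Rorb and Tfap2b. Without the pair, 8, 8 and 5 of 10 microglial markers rose on days 3, 7 and 14, and with it 1, 1 and 0 (limma). Of all genes, 7.07, 1.11 and 4.71% passed without the pair and 0.0578, 0.103 and 0.0514% with it. The part of these marker differences in the members' values was not tested, and in bulk tissue fewer cells of a type and less RNA per cell cannot be told apart.

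**Figure D1:**
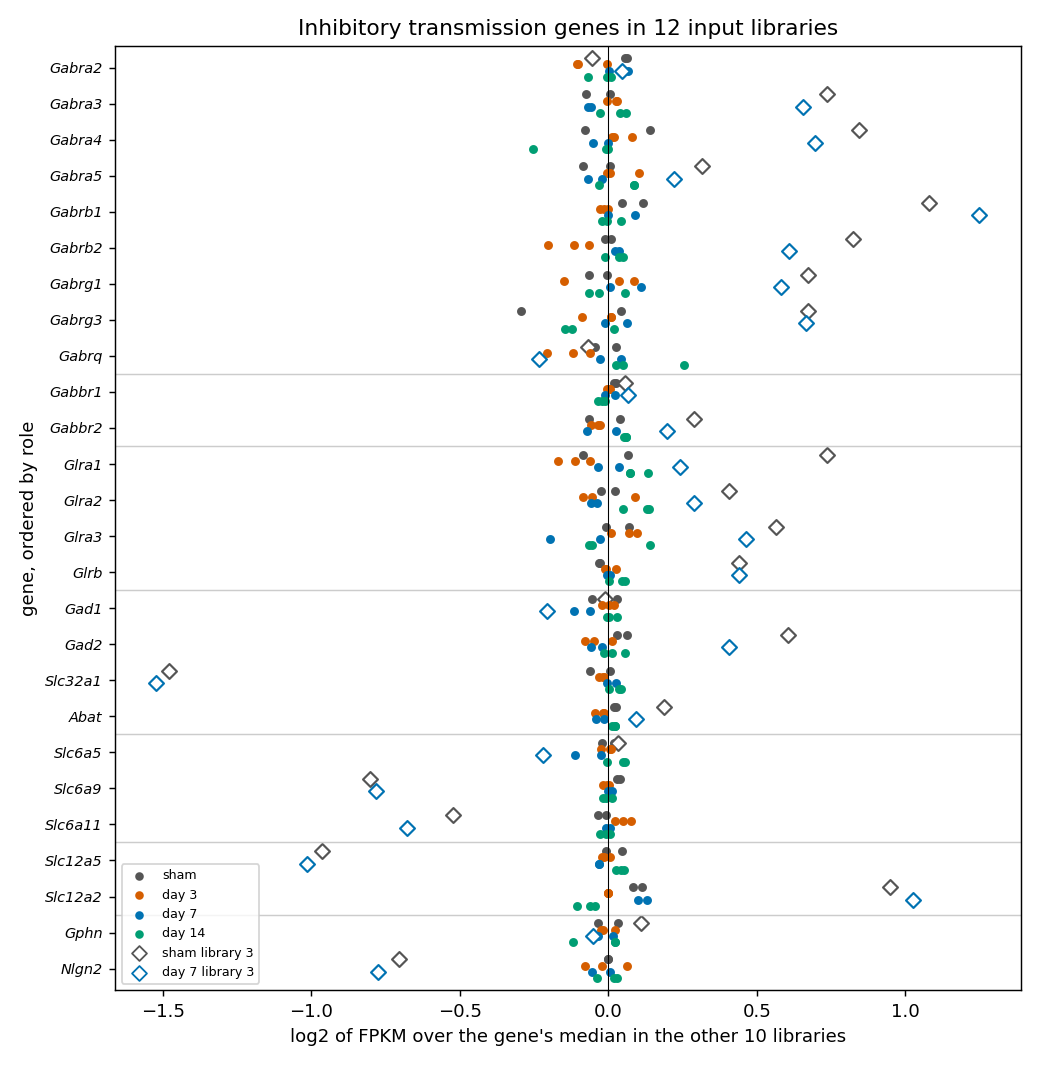
For the 26 genes tested, each point is 1 input library, placed by the log2 of its FPKM over the gene's median in the 10 libraries other than sham library 3 and day 7 library 3, which are drawn as open diamonds. The diamonds fall together, far left for Slc32a1, Slc12a5 and Slc6a9 and far right for Gabrb1 and Slc12a2, while the 10 other libraries keep near 0.

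With all 12 libraries no inhibitory gene passed the test on any day. In limma fits of log2(FPKM + 0.5) across the 15564 genes, 0 of 26 members passed an adjusted p of 0.05 on day 3, day 7 or day 14 against sham, where 0.0578, 0.103 and 0.0514% of all genes passed. In limma 0 members had an unadjusted p under 0.05 on any of these days. Their differences ran from -0.4 to 0.48 on day 3, from -0.16 to 0.07 on day 7 and from -0.44 to 0.53 on day 14, with medians of -0.11, -0.04 and -0.06 beside 0.03, 0.01 and 0.03 over all genes tested. No member passed for the injured days averaged and set against sham either (0.129% of all genes did), nor for day 7 against day 3 (0.0129%), day 14 against day 7 (0.0321%) or day 14 against day 3 (0.0129%). Among these contrasts only Slc6a5, day 14 against day 7, had an unadjusted p under 0.05 (0.036 in limma). With the replicate number as a block, 0 members passed on day 7 and the number of all genes that passed went from 16 to 9. An interval of 95% within 1 log2 unit of 0 held for 24, 26 and 23 of the 26 members on days 3, 7 and 14, and within 0.5 for 12, 17 and 12.

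Without day 7 library 3 and sham library 3 the differences shrank and 2 members passed. Slc6a11, a GABA transporter of astrocytes, rose on day 3, and Slc12a2 fell on day 14, each by under 0.2 log2 units, against 7.07% of all genes passing on day 3, 1.11% on day 7 and 4.71% on day 14. On day 7 no member passed (3 had an unadjusted p under 0.05, beside 6 on day 3 and 5 on day 14). Slc12a2 was also the 1 member that passed for day 14 against day 7 (2.69% of all genes), where it was lower on day 14. No member passed for day 7 against day 3 (2.04%), day 14 against day 3 (1.99%) or the mean of the injured days (4.41%). In these contrasts 7, 9 and 6 members had an unadjusted p under 0.05. The percentages are for the adjusted p, and the share of all genes at an unadjusted p under 0.05 is not given. Counts at the unadjusted cut, here and elsewhere, thus do not measure an excess. The differences of all 26 members then lay within -0.12 to 0.07, -0.11 to 0.1 and -0.17 to 0.1 on the 3 days, and their 95% intervals lay within 0.5 log2 units of 0 for 26 of 26. The spread behind these calls is that between libraries of a group that differ by 1.21 to 1.75%, and with such libraries averaged the 10 would leave no degrees of freedom for a test. Of 78 differences of members from sham, 25 changed sign when the pair was left out.

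**Figure D2:**
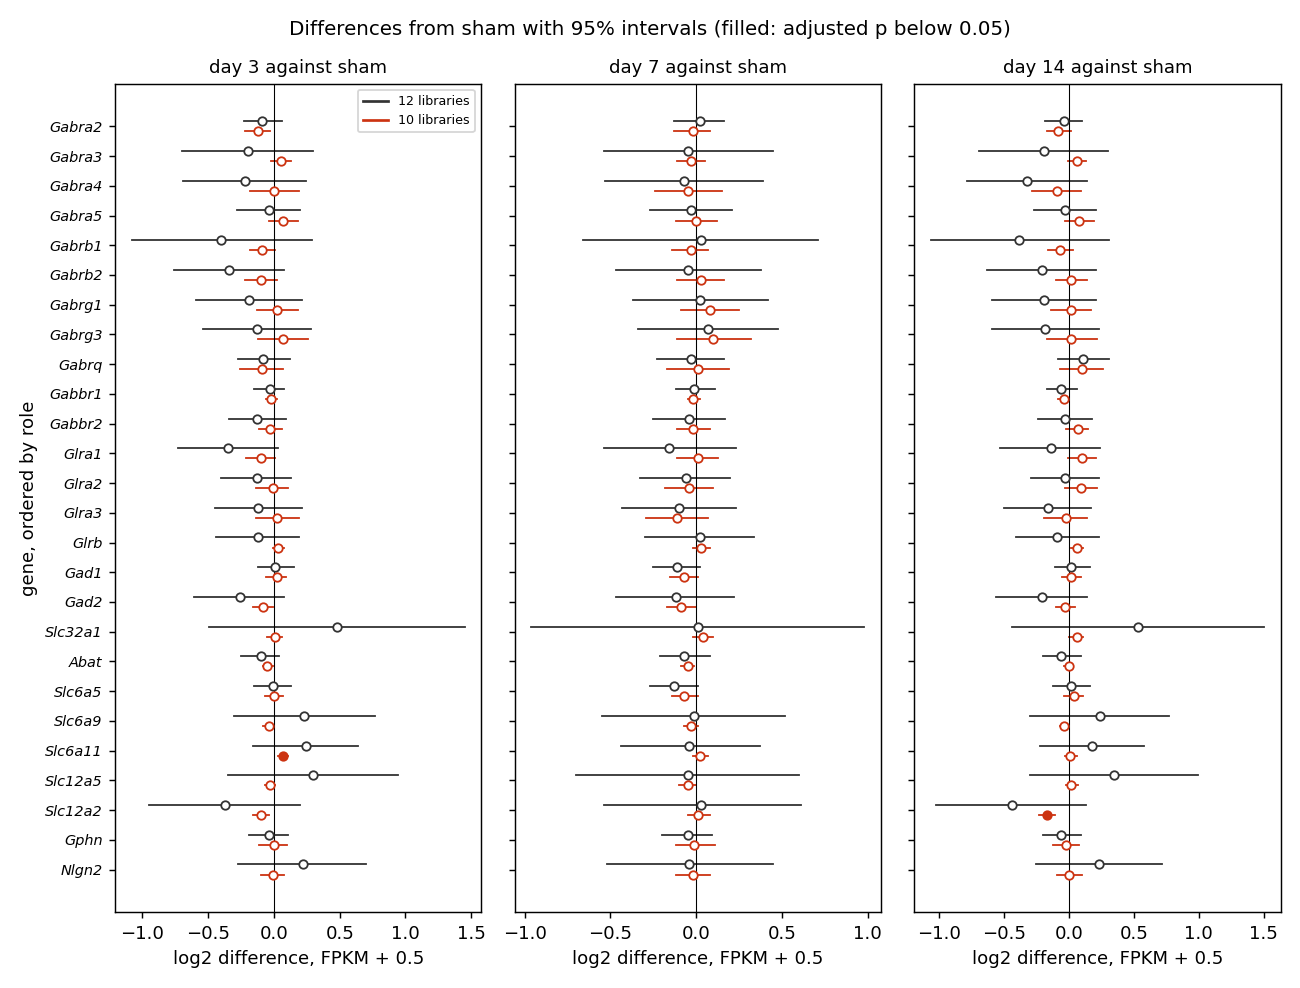
Points are log2 differences from sham on the log2(FPKM + 0.5) scale with 95% intervals, dark for all 12 libraries and red for the 10 libraries without sham library 3 and day 7 library 3, and a filled point marks an adjusted p below 0.05. Only Slc6a11 on day 3 and Slc12a2 on day 14 are filled, both among the 10, and the dark intervals are widest for Slc32a1.

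Neither enzyme that makes GABA passed on any day in either setting. Gad1, the larger of the glutamate decarboxylases and the source of most basal GABA, was at 17, 18 and 17.5 FPKM in sham libraries 1 to 3, 17.9, 17.4 and 17.7 on day 3, 16.3, 16.9 and 15.3 on day 7 and 17.7, 18 and 17.6 on day 14. Day 7 lay just below sham with no overlap, a difference of -0.11 ± 0.06 (SE; limma adjusted p = 1), or -0.07 ± 0.03 without the pair (adjusted p = 0.452). Gad2, the decarboxylase tied to synaptic terminals, was at 16.8, 17.2 and 25 FPKM in sham and 15.9, 16.6 and 15.6 on day 3. It was at 16.2, 15.8 and 21.8 on day 7 and 17.1, 16.6 and 16.3 on day 14. Its high values were those of the pair, so the ratio of Gad1 to Gad2 was 0.701 in each of these libraries and 1.01 to 1.13 in the other 10. Abat, the transaminase that breaks GABA down, ranged from 68 to 71.3 FPKM in the 10 and reached 79.7 and 74.7 in sham library 3 and day 7 library 3. The 2 highest genes of the list of inhibitory interneuron markers, Calb2 (mean 113 FPKM) and Sst (96.9), are also expressed by many excitatory neurons of the dorsal horn, so the list does not mark inhibitory cells alone. Without the pair, 3, 1 and 3 of its 16 tested genes rose and 0 fell (limma) on days 3, 7 and 14 (medians 0.06, 0.06 and 0.1). Of all genes, 7.07, 1.11 and 4.71% passed on these days in either direction. Those of the list were the neuropeptide genes Penk and Pdyn with the calcium-binding Calb2 on day 3, the neuropeptide gene Npy on day 7, and Npy, Penk and Calb2 on day 14. Over all 12 libraries 0 of 16 passed (4, 1 and 3 at an unadjusted p under 0.05 in limma).

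Slc32a1 (ENSMUSG00000037771, chr2:158610767-158615748, plus strand), the vesicular transporter that loads both GABA and glycine, differed most between libraries of 1 group. It was at 49, 46.8 and 17.5 FPKM in sham and 48.3, 47.8 and 48.2 on day 3. On day 7 it was at 49.7, 48.7 and 17, and on day 14 at 50.1, 50.3 and 48.9. The value in sham library 3 was 2.73-fold below its group mates and that in day 7 library 3 was 2.9-fold below, and every other library lay within a 1.08-fold range. From all 12 libraries the day 3 difference was 0.48 (95% interval -0.49 to 1.45) and the day 14 difference 0.53 (-0.44 to 1.5). Without the pair they were 0.01 (-0.05 to 0.06) and 0.06 (0 to 0.11; limma adjusted p = 0.236). Slc32a1 and Gad1 are both genes of inhibitory neurons, and their FPKM ratio was 1 in sham library 3 and 1.11 in day 7 library 3 against 2.6 to 3.04 in the rest.

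**Figure D3:**
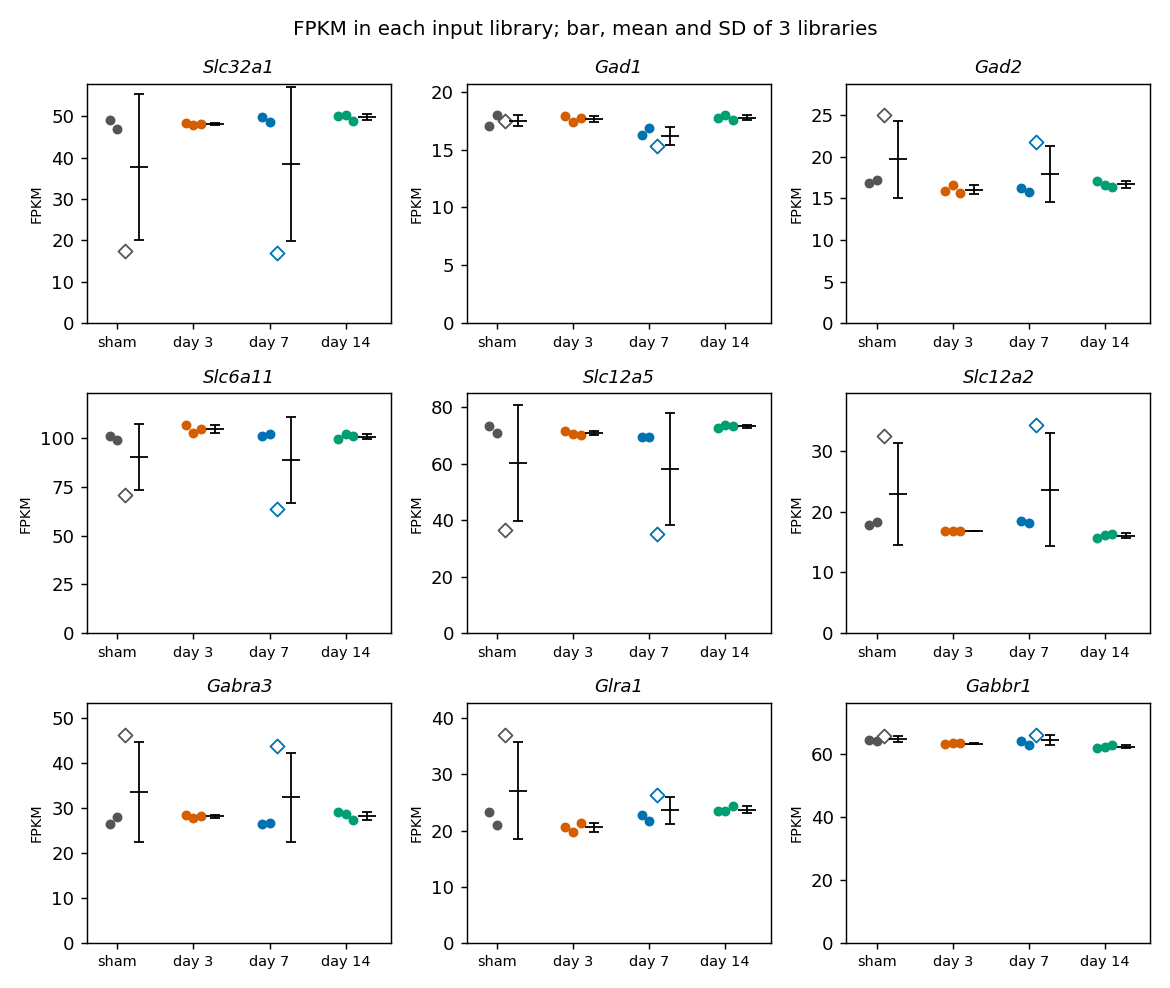
FPKM of 9 genes in each input library by group, with open diamonds for sham library 3 and day 7 library 3 and black bars for the mean and SD of 3 libraries; axes start at 0. The SD of Slc32a1, Slc12a5 and Slc12a2 in sham and on day 7 comes from the diamonds, and the other points form a nearly level line, with Slc12a2 lowest on day 14.

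Of the transporters that clear transmitter from the cleft, Slc6a11 (ENSMUSG00000030307, chr6:114131241-114249952, plus strand) had the highest mean level of all 28 members, 96.2 FPKM. It was at 101, 99.1 and 70.7 FPKM in sham and 107, 103 and 105 on day 3. Its day 7 values were 101, 102 and 63.5, and its day 14 values 99.5, 102 and 101. All day 3 libraries were above all sham libraries, by 0.24 with 12 libraries (-0.16 to 0.64; adjusted p = 0.695) and by 0.07 without the pair (0.03 to 0.11; limma adjusted p = 0.0495). On day 7 and day 14 the difference without the pair was 0.02 and 0.01. Slc6a11 is an astrocyte gene, and of 10 astrocyte markers (highest Aldoc, mean 414 FPKM, and Gfap, 342) 2 rose and 1 fell on day 3 without the pair, with a median of -0.02. Of all genes, 7.07% passed there. The summed FPKM of these markers was 1063 to 1109 in sham and 1096 to 1097 on day 3.

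The glycine transporters differed in how their levels spread across the libraries. Slc6a5 (GlyT2), which returns glycine to inhibitory terminals and marks glycinergic neurons, was at 52.3, 50.8 and 52.8 FPKM in sham and 50.7, 51.8 and 51.9 on day 3. The later days gave 47.7, 50.7 and 44.3 (day 7) and 51.4, 53.7 and 53.4 (day 14). Day 7 was lowest and did not overlap sham, by -0.13 (-0.27 to 0.01; adjusted p = 1) or -0.07 without the pair (limma adjusted p = 0.461), and day 14 stood 0.15 above day 7 (0.01 to 0.29; adjusted p = 0.784). Slc6a9 (GlyT1), mostly glial, was at 49.5, 49.8 and 27.8 FPKM in sham and 48.5, 47.9 and 48.3 on day 3. It was at 48.4, 48.9 and 28.2 on day 7 and 48.2, 48.9 and 47.9 on day 14. Outside the pair its levels varied little, and those of day 3, day 7 and day 14 lay just below sham without overlap. The differences were -0.04, -0.03 and -0.04 (limma adjusted p = 0.175, 0.553 and 0.237). In the pair the ratio of Slc6a5 to Slc6a9 was 1.9 and 1.57 against 0.985 to 1.12 elsewhere.

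The chloride cotransporters, whose balance sets the sign of GABA and glycine responses, had opposite outlying values in the pair. Slc12a5 (ENSMUSG00000017740, chr2:164960802-164999731, plus strand), the neuronal exporter, was at 73.5, 70.8 and 36.5 FPKM in sham and 71.5, 70.5 and 70.1 on day 3. On day 7 it was at 69.6, 69.6 and 35.2, and on day 14 at 72.5, 73.8 and 73.3. Slc12a2 (ENSMUSG00000024597, chromosome 18), the importer, which glia also express, was at 17.9, 18.3 and 32.6 FPKM in sham and 16.9, 16.9 and 16.9 on day 3. Its day 7 values were 18.5, 18.1 and 34.4, and its day 14 values 15.7, 16.2 and 16.4. The ratio of exporter to importer was 3.75 to 4.63 in 10 libraries and 1.12 and 1.02 in sham library 3 and day 7 library 3. The low ratios were thus in 1 sham and 1 injured library. Sham libraries 1 and 2 had ratios of 4.1 and 3.86, and day 7 libraries 1 and 2 had 3.75 and 3.86. The day 3 ratios (4.24, 4.16 and 4.14) and the day 14 ratios (4.63, 4.56 and 4.47) were above both sham values. The ratios were not tested.

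Outside the pair, Slc12a5 did not pass on any day (-0.03, -0.05 and 0.02; unadjusted p = 0.0403 on day 7 in limma). Slc12a2 stood at -0.1 on day 3 (adjusted p = 0.0647), 0.01 on day 7 (adjusted p = 0.9) and -0.17 on day 14 (-0.23 to -0.11; limma adjusted p = 0.0111), and day 14 was 0.18 below day 7 (adjusted p = 0.0103). From all 12 libraries the day 14 difference was -0.44 (-1.02 to 0.13; adjusted p = 0.7). All 3 day 14 libraries were below every sham and day 7 library in either case. Markers of oligodendrocytes and their precursors (highest Mbp, mean 1742 FPKM) moved in the same way without the pair. Of 10 markers, 9 fell on day 3 (median -0.19), where 7.07% of all genes passed. On the later days 3 rose on day 7 (median 0.02) and 8 fell on day 14 (median -0.25). Of all genes, 1.11 and 4.71% passed on these days. The part of these markers in the Slc12a2 difference was not tested. When all 12 libraries were used, 0 of these 10 markers passed on any day (medians -0.03, 0.09 and -0.14; 2, 0 and 2 at an unadjusted p under 0.05 in limma).

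GABA-A receptors are pentamers, mostly of alpha, beta and gamma subunits, and of the 11 subunits here Gabra3 and Gabra5 had the highest means (30.6 and 17.3 FPKM). Gabre (0.489) and Gabrd (0.192) were too low to test. Gabra3 was at 26.4, 27.9 and 46.3 FPKM in sham and 28.4, 27.7 and 28.3 on day 3. The later days gave 26.5, 26.7 and 43.8 (day 7) and 29, 28.6 and 27.3 (day 14). Gabrb1 was at 4.65, 4.88 and 9.52 FPKM in sham and 4.5, 4.41 and 4.46 on day 3. It was at 4.5, 4.79 and 10.7 on day 7 and 4.44, 4.64 and 4.49 on day 14. Both varied little outside the pair. Gabrb1 lay just below sham without overlap on day 3 and day 14. So did Gabrb2, Gabbr1, Gad2, Abat and Slc12a2 on day 3, and Gabrd and Gabrq lay above sham on day 14. The share of all genes without overlap is not given, so a lack of overlap named here or elsewhere is a description only. Gabrb1 was 2-fold above its group mates in sham library 3 and 2.29-fold above in day 7 library 3.

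Gabra4, Gabrb2, Gabrg1 and Gabrg3 shared that shape, each 1.44 to 1.77-fold higher in the pair. Gabra5, which carries tonic inhibition, was 1.27-fold and 1.2-fold higher there. Gabra2 and Gabrq did not share it. Gabra2, the subunit tied to pain relief by benzodiazepine-site drugs, was at 8.02, 8.06 and 7.42 FPKM in sham and 7.18, 7.69 and 7.16 on day 3. The day 3 difference did not pass (-0.09; adjusted p = 0.695, or -0.12 without the pair, limma adjusted p = 0.12). Day 3 overlapped sham for Gabra2 only through sham library 3. With all 12 libraries 9 of 9 tested GABA-A subunits were below sham on day 3 (median -0.19), 5 of 9 on day 7 and 8 of 9 on day 14 (median -0.19). Without the pair the median was 0 on day 3, 0 on day 7 and 0.02 on day 14, with 4, 5 and 3 of 9 below sham.

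The GABA-B receptor is an obligate pair of Gabbr1, which binds GABA, and Gabbr2, which couples to the G protein. Gabbr1 ranged only from 61.7 to 66.1 FPKM over all 12 libraries, and it was 1.02-fold above its group mates in sham library 3 and 1.04-fold above in day 7 library 3. Gabbr2 lay between 18.6 and 20.4 FPKM in the 10 and reached 23.9 and 22.4 in sham library 3 and day 7 library 3. On day 14 Gabbr1 was at 62.2 ± 0.506 FPKM (SD, n = 3) against 64.7 ± 0.919 in sham, with no overlap. The log2 difference was -0.06 (-0.17 to 0.06; limma adjusted p = 0.7), or -0.04 (-0.08 to -0.01; adjusted p = 0.165) without sham library 3 and day 7 library 3.

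Glycine receptors of the adult cord combine Glra1 with Glrb, the subunit that binds gephyrin, and Glra3 serves a part of the dorsal horn. Glrb was at 44.5 to 47.3 FPKM in the 10 libraries and at 61.8 in both of the others. Glra1 was at 23.3, 21 and 37.1 FPKM in sham and 20.6, 19.8 and 21.3 on day 3. On day 7 it was at 22.8, 21.7 and 26.3, and on day 14 at 23.4, 23.4 and 24.4. Its day 3 libraries were low and its day 14 libraries high against each other without overlap, by 0.2 in both settings (adjusted p = 1 with 12 libraries and 0.0551 without the pair, in limma). Glra1 on day 3 was 0.35 below sham with 12 libraries (-0.73 to 0.03; adjusted p = 0.695) and 0.1 below without the pair (adjusted p = 0.252). Glra2, mainly a fetal subunit, lay at 3.33 to 3.88 FPKM and Glra3 at 1.38 to 1.74 in the 10, and both were higher in the pair. Gphn, gephyrin itself, stayed between 16.2 and 19 FPKM in all 12. Nlgn2, the adhesion protein of inhibitory synapses, was at 28.2 to 31.1 in the 10 and at 18.3 and 17.4 in sham library 3 and day 7 library 3.

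Genes of the same pathways beyond the 28 were like them in that none passed with all 12 libraries. With all 12 libraries 0 of 11 tested other receptor subunits and auxiliary proteins, 0 of 21 other scaffold and trafficking proteins, 0 of 15 other uptake and metabolic genes and 0 of 14 other chloride-handling genes passed on any day. In limma 0, 1, 2 and 0 of them had an unadjusted p under 0.05 on day 3, 0, 0, 0 and 0 on day 7 and 0, 0, 2 and 0 on day 14. Without the pair, genes of the uptake list and of the scaffold list passed, where 7.07, 1.11 and 4.71% of all genes passed on days 3, 7 and 14. Glul, the glutamine synthetase of astrocytes, then rose on day 3 (0.08, limma adjusted p = 0.00304) and day 14 (0.09, adjusted p = 0.00251) and fell on day 7 (-0.08, adjusted p = 0.0104). It was at 356, 354 and 609 FPKM in sham and 377, 374 and 372 on day 3. Its day 7 values were 337, 335 and 506, and its day 14 values 375, 378 and 378, so its changes were small beside its values in the pair. Gcsh, of the glycine cleavage system, rose on day 3 (0.22, limma adjusted p = 0.031), and the taurine transporter Slc6a6 fell on day 3 and day 14 (-0.13 on both, limma adjusted p = 0.0403 and 0.047). Gcsh had the smallest unadjusted p of its list over the full set of libraries too (log2 difference of 0.25, limma adjusted p = 0.484).

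In the scaffold and trafficking list, Gabarapl1, a ubiquitin-like partner of GABA-A receptor transport, rose on day 3 and day 14 without the pair (0.11 and 0.08, limma adjusted p = 0.00529 and 0.0216). Trak2, a kinesin adaptor, fell on both days (-0.17 and -0.11, limma adjusted p = 0.00494 and 0.0338). Its FPKM was 52.8 and 57.7 in sham library 3 and day 7 library 3 and 30.7 to 34.9 in the rest. Iqsec3, an exchange factor bound to gephyrin, fell on day 3 (-0.1, limma adjusted p = 0.0459) and Nsf rose on day 14 (0.07, limma adjusted p = 0.0249). In the receptor and chloride lists no gene passed in either setting. Without the pair, 1, 0 and 1 receptor genes and 2, 2 and 1 chloride genes had an unadjusted p under 0.05 in limma on days 3, 7 and 14. Over all 12 libraries the smallest unadjusted p-values of the receptor list belonged to Lhfpl4 on day 3 (log2 difference of 0.17) and Kctd12 on day 14. Kctd12 was listed at 0 in 5 libraries, 1 of sham, 1 of day 7 and all 3 of day 14, and at 6.69 to 12.3 FPKM in the other 7, so the zeros may be failed estimates and no difference is given. In the chloride list the smallest belonged to Wnk4, Wnk2 and Stk39 on days 3, 7 and 14 (log2 differences of 0.32, -0.11 and -0.26). These kinases regulate cation-chloride cotransporters. In the scaffold list the smallest belonged to Gabarapl2, Nsf and Insyn2a (log2 differences of 0.18, -0.11 and -0.45).

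Most of these mRNAs had an m6A peak, as did most genes tested. The sham list held 46 peaks on 24 of the 28 genes, the day 3 list 65 on 26, the day 7 list 46 on 23 and the day 14 list 63 on 26. Of the 15564 genes tested, 74.4, 85.5, 76.6 and 85.1% had a peak. Gabrd and Gabre are among the 28 but not among the genes tested, so the 2 counts have unlike bases. The lists differ in length (32669, 40195, 34136 and 38655 peaks), and there is no list per library, so differences between them have no replicate check. The fold enrichment of a peak is the authors' own value and describes peaks within a list. Coordinates are those of the authors' files, whose build is not named and whose genes lie where GRCm38.p6 has them (99.9% of 26215 genes matched by symbol overlap). Slc6a5 had no peak in any list at a mean of 50.9 FPKM. Gad1 had 1 peak, in the day 14 list (fold 1.51), Glra2 had peaks only in the day 3 list, and Abat only in the day 3 and day 14 lists. Nlgn2 had 4 peaks in each list.

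Peaks that overlapped in exonic bases were joined across lists into 72 regions on the 27 genes with a peak. Joining was by chain, so not every peak of a region overlaps every other. Of these, 37 regions, on 23 genes, were in all 4 lists (51.4%, beside 43.1% of 47316 regions of all genes). Of these 37, 26 reached a 3' UTR, 8 a 5' UTR and 3 lay in other exons only. The members' peaks in sham were classed by the authors as 3' UTR in 58.7%, 5' UTR in 21.7% and other exon in 19.6%, against 48.4, 15.3 and 36.3% of all sham peaks. Peaks were given to a gene by the gene ID under which each was listed; for 16, 24, 16 and 20 of them in the sham, day 3, day 7 and day 14 lists the authors' annotation columns name another gene, so a class may refer to that gene's transcript. The longer list of day 3 had 67.7% in 3' UTRs and 9.23% in other exons. Of the members' peaks, 32 of 65 on day 3, 31 of 46 on day 7 and 32 of 63 on day 14 had a counterpart in sham by reciprocal overlap of 50% of exonic bases (49.2, 67.4 and 50.8%). Over all genes 42.4, 54.5 and 45.4% of the peaks had one. That gap did not keep its direction under every other overlap rule, as given at the end. Seen from the sham list, 69.6, 67.4 and 69.6% of its 46 member peaks had a counterpart on the 3 days. Of all sham peaks, 52.2, 57 and 53.8% had one.

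**Figure D4:**
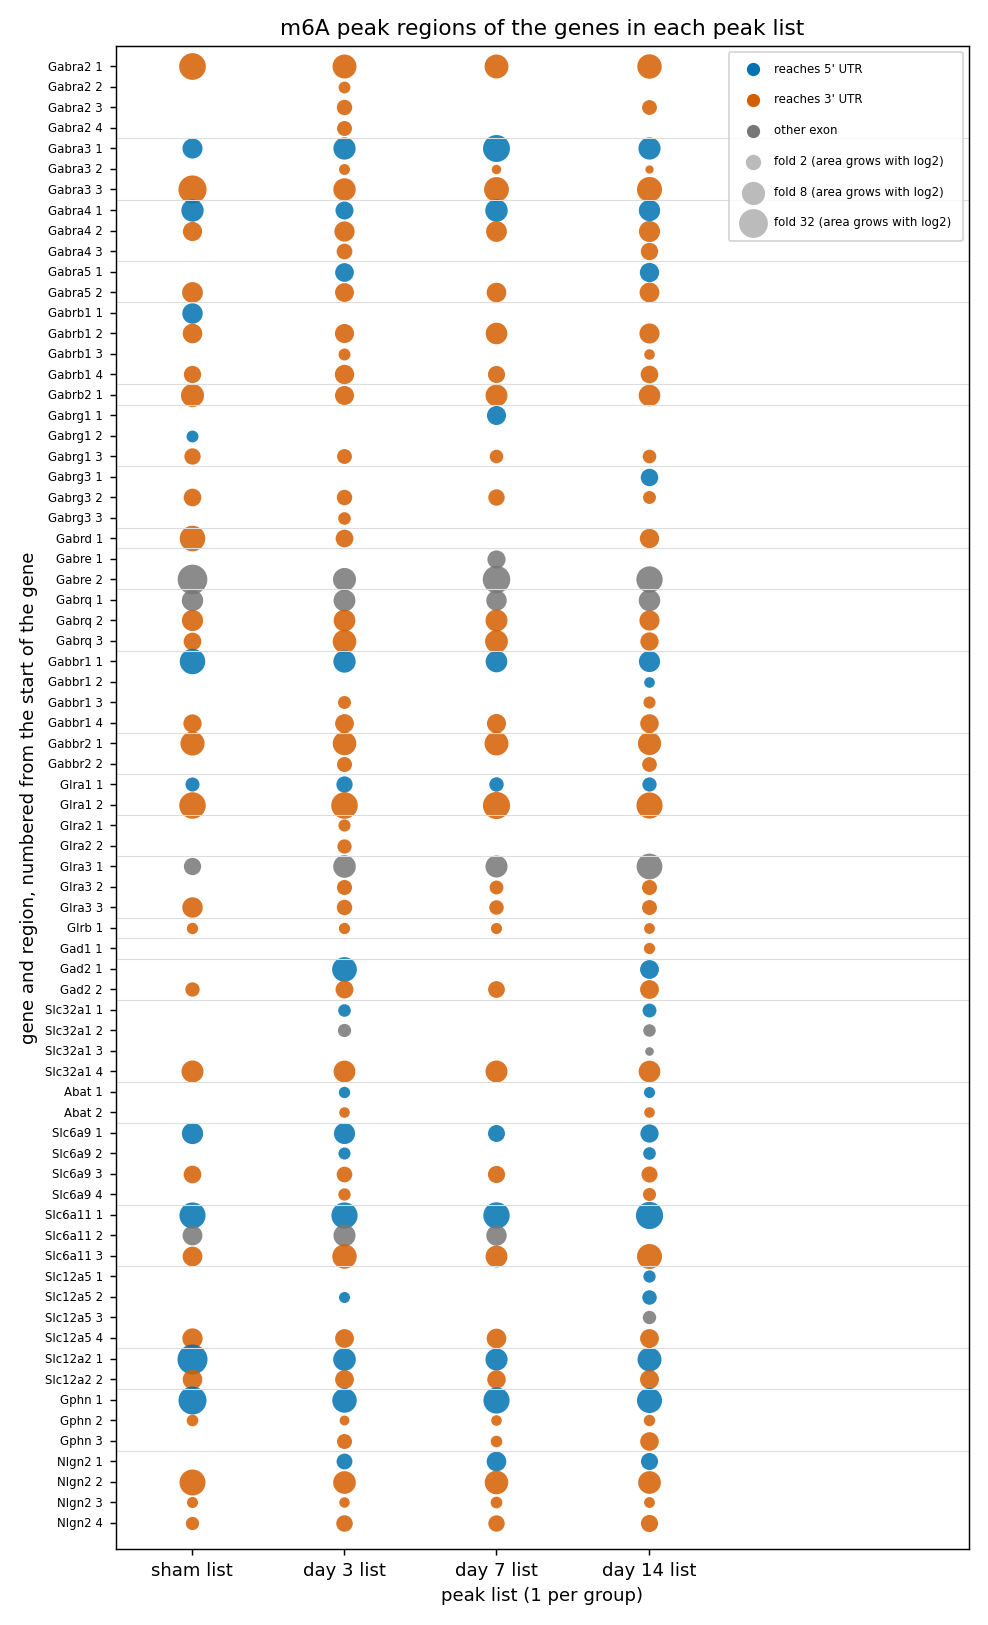
Rows are the 72 peak regions of the genes, numbered from the start of each gene, and columns are the 4 peak lists; a dot marks a peak, its area grows with the log2 of the authors' fold enrichment and its colour gives the authors' class. Rows filled across all 4 columns make up 37 of the 72, and 14 rows are filled only under day 3 and day 14.

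Of the 6 member peaks of highest fold in sham, 5 were classed as 5' or 3' UTR. In sham the highest fold among members was 76.4, at the 5' end of Slc12a2, and 0.413% of sham peaks were at least as high. The region was in all lists, at 10.7 on day 3, 14.5 on day 14 and, as 2 peaks, 9.49 and 7.63 on day 7. An exon of Gabre followed at 69.5 (11.7, 36.6 and 26.4 in the day 3, day 7 and day 14 lists), a gene at a mean of 0.489 FPKM. Next came the 3' UTR of Gabra3 at 44, the 5' UTR of Gphn at 42.6, the 3' UTR of Gabra2 at 29.5 and the 3' UTR of Glra1 at 27.8, with a further sham peak of 5.56.

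The end of Glra1 (chr11:55514238-55514953, minus strand) had high folds in the injured lists too, 28.4, 33 and 25.5. The 5' UTR of Slc6a11 (chr6:114131241-114131450, plus strand) was at 25.4 in sham and 25.8, 27.2 and 33.5 on days 3, 7 and 14. The 3' UTR of Slc32a1 (chr2:158615064-158615748, plus strand) had 9.24, 8.89, 9.13 and 8.61 in sham and on days 3, 7 and 14, and that of Slc12a5 had 6.33 and 6.04 (2 peaks), 4.74, 5.6 and 4.78. These mRNAs thus carried a peak in every list, including those of the groups in which 1 input library had low FPKM of Slc32a1 and Slc12a5.

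The sequence under 5' peaks could be read where a RefSeq promoter window (250 bases before to 50 after a gene start, GRCm38.p6) fell under a peak. The coordinates of all 28 genes overlap those of RefSeq genes of the same name in that build, and 24 of the genes have a window, 32 windows in all. In 11 genes a window lay partly under a peak, and 3 of these held the letters GGAC, the core of the m6A motif, on the sense strand inside the peak. No reverse match (GTCC) lay under a peak. The sites are shown with the bases on each side and the 4 matched letters in capitals, since the methylated base would be the A of this core. The window of Gphn lies whole under the 5' peak of the day 3 and day 14 lists and largely under that of sham and day 7. A pair of matches lies under the peak of all 4 lists, at chr12:78226528-78226555 and chr12:78226566-78226593, plus strand.
Gphn, first match: ttcctcccggccGGACtcggggtcgcgc
Gphn, second match: cgccccctccgcGGACccgcgcgctcct

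The 5' peak of Slc6a9, also in all 4 lists (fold 7.86 in sham, 7.62 on day 3, 3.41 on day 7 and 4.3 on day 14), has matches at chr4:117835179-117835206 and chr4:117835227-117835254, plus strand.
Slc6a9, first match: agggaggagatgGGACcagggcggggga
Slc6a9, second match: cagggaggggagGGACttggctaggttt

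The 5' peak of Gabra5 was in the day 3 and day 14 lists only (fold 4.69 and 5.27), and its match lies at chr7:57510032-57510059, minus strand.
Gabra5: gcctaggcagagGGACgttcctcaaacc

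A match is a description of the letters and not a mapped site. The matches of Gphn and Slc6a9 lie in the 250 bases before the RefSeq start of their window, and that of Gabra5 after it. GGAC is in 65.6% of all 32851 windows on the sense strand and in 59.4% of the 32 windows of these genes, and the lack of a match in the window bases under the 5' peaks of Gad2, Slc6a11, Gabra4 and Nlgn2 says only that these letters are not there.

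A set of 14 regions on 11 genes was present in the day 3 and day 14 lists and in neither of the others, 19.4% of the members' regions beside 9.24% of the regions of all genes. They include both regions of Abat, 2 each of Slc32a1 and Slc6a9, and 1 each of Gad2, Slc12a5, Gabbr1, Gabbr2, Gabra2, Gabra4, Gabra5 and Gabrb1. Sham and day 7 are also the groups that hold the input libraries that stood apart and have the shorter lists. Their part in this pattern was not tested. Most of these peaks were weak. Of 28, 23 had a fold under 3, and the median was 1.89 against 6.2 for peaks of regions in all 4 lists. A total of 5 of the 14 regions passed a fold of 2 and a p of 1e-05 in both lists. The strongest was over the 5' UTR of Gad2 (chr2:22622205-22622505, plus strand), at 17.6 on day 3 and 4.83 on day 14.

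Other peaks of fold 5 or more were missing from at least 1 list. The 5' UTR of Nlgn2 had a peak on day 7 (5.54), day 3 (2.84) and day 14 (3.49) and none in sham. The first exon region of Slc6a11 past its 5' UTR had peaks in sham (5.79), on day 3 (9.38) and on day 7 (6.58) and none on day 14. The log10 p of these peaks was only -3.15, -2.29 and -1.37. Its sham and day 7 peaks share no base and are joined through the day 3 peak. The 3' UTR of Gabrd had 21.5 in sham, 3.91 on day 3 and 5.27 on day 14 and none on day 7, at a mean of 0.192 FPKM. The log10 p was -5.7, -1.65 and -2.72 in these lists. A 5' peak of Gabrg1 was in the day 7 list alone (5.01, log10 p of -2.48). A peak over the 5' end of Gabrb1 was in the sham list alone (6.62, log10 p of -1.43). Its bases overlap those of the 5' region of Gabra4 on the other strand. That region had a peak in all 4 lists (9.93 in sham, log10 p of -2.33), but its day 3 and day 7 peaks share no base with its day 14 peak. Gabra4 and Gabrb1 start next to each other in opposite directions. The library protocol marks the second strand with dUTP, but no label says whether counting or peak calling used strand, so these signals cannot be told apart.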

How the data were processed

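Input RNA and m6A-enriched RNA were sequenced from mouse spinal cord, 3 libraries of each kind in 4 groups. The authors deposited 1 table of FPKM for the 12 input libraries and 1 peak list per group with a fold enrichment (ratio) and a score, the log10 of a p-value, per the file headers. HISAT2, ChIPseeker, StringTie and edgeR were used, per the submitters' processing notes. The sources used here do not give the peak caller, the genome build or any pooling before calling. With FPKM only, the depth per library is unknown and no count test was run.

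A gene entered if its mean FPKM reached 0.5. The limma-trend fits (limma 3.58.1, R 4.3.3) used log2(FPKM + 0.5) with 4 group means and adjustment by Benjamini-Hochberg within each contrast, with a threshold of 0.05. Fold changes are on that scale, which understates changes of low genes. The script was tested on simulated data. The members and lists were chosen with earlier results of these data known. Named genes were the 28, genes of 4 pathway lists that passed on an injured day or had the smallest p of their list, the 2 highest markers of a list and those near 0, and peaks of highest fold or of fold 5 or more that a list lacked. Peaks were joined on exonic bases and strand. Alternatives changed the pseudocount, filter, scaling, samples, weights, replicate block and peak overlap. Same-numbered libraries were checked for pairing by correlating their deviations from the group mean. The correlation was above 0.1 in 7 of 18 pairs (-0.105 to 0.793), in all 3 pairs only for sham and day 7 (0.459, 0.534 and 0.793). In these 2 groups library 3 shifts the mean, so libraries 1 and 2 deviate together in the opposite direction. These 3 values thus cannot show whether sham and day 7 libraries are paired. IP libraries without per-library values were not analysed here. A few genes that the naming rule covers are not reported here.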

Additional observations from a re-analysis of the deposited data

Results flagged for a closer look

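Slc12a2 differed between injured days. With day 7 library 3 and sham library 3 left out, its difference from sham was 0.01 on day 7 and -0.17 on day 14, and the difference between these days was -0.18 (limma, adjusted p = 0.0103), with all 3 day 14 libraries below both day 7 libraries. With all 12 libraries the difference between the days was -0.48 (adjusted p = 0.784). No group had more than 3 libraries, so single libraries were not tested as outliers.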

How the results depend on the processing

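In the counts against sham, between days and for the mean of the injured days, 0 members passed under every alternative but 1. Without day 7 library 3 and sham library 3, 1 member passed on day 3, 1 on day 14 and 1 for day 14 against day 7. With the replicate block 0 members passed in any contrast, and 5, 9 and 8 of all genes passed on days 3, 7 and 14. Leaving out each library in turn gave 0 members in every case and 3 to 40, 4 to 26 and 5 to 21 of all genes. With near-identical libraries averaged and the pair that stood apart kept as samples of their own, 0 genes passed on any day. That fit has 6 samples and 2 residual degrees of freedom, both from that pair, so it does not bear on the calls made without it. Other scalings shifted the median difference of all genes by -0.05 to 0. Of 1851 member differences under alternatives 130 changed sign, none of them among differences that passed. The mean of the injured days could not be fitted from pairs of groups. Member peaks shared with sham on days 3, 7 and 14 numbered 12, 19 and 11 at a reciprocal overlap of 80%. These were 18.5, 41.3 and 17.5%, beside 19.6, 29.4 and 20.9% of all peaks. By spans that include introns, an alternative chosen after seeing the data, they numbered 24, 22 and 25. These were 36.9, 47.8 and 39.7%, beside 38.7, 49.8 and 41% of all peaks. At 1 shared base the shares were 61.5, 80.4 and 61.9%, beside 63.1, 73.4 and 64.9%. With equal numbers of peaks they were 56.1, 68.9 and 54.2%, beside 49.8, 56.5 and 51.4%. The members' higher share at 50% thus did not hold under every rule. Day 3 had 40 member peaks in the stricter list (fold of at least 2, p of at most 1e-05). The FPKM carry no depth, the sham is of 1 day, and peaks have no replicates.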
